A study of Mus musculus with 9 samples.

Results

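The noncollagen glycoproteins and proteoglycans of the extracellular matrix were described in mouse tail skin after surgical ablation of the lymphatic vessels. The members were chosen by gene symbol in the probe annotation of the array: laminins, nidogens, fibulins, fibrillins, thrombospondins, microfibril-associated proteins, EFEMPs, EMILINs, LTBPs, syndecans, glypicans and matrilins, together with Eln, Bgn, Dcn, Lum, Fmod, Sparc, Sparcl1, Tnc, Fn1, Postn, Vcan, Hspg2 and Tgfbi. The choice used symbols and no measured value, but it was made with earlier results of these data known. The symbols matched 43 of the 10554 genes named by the annotation, on 86 of 20678 named features. A value on all 9 arrays was present for 41 of the 43 genes, on 75 cDNA clones, and the tests below cover these 41 among 8644 genes. Lama1 and Thbs2 lacked values on some arrays, and Lum was not analysed here.

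Skin of the distal tail came from 3-wk-old female mice of the SKH-1 strain, which is hairless and immunocompetent, on day 14. Lymphedema mice had received a circumferential skin incision, methylene blue to stain the lymphatic trunks, and cautery of those trunks. Sham mice received the incision and the dye without cautery, and normal mice had no surgery. Each group comprised 9 mice in 3 pools of 3 mice, so that an array reports a pool and the spread between single mice is not visible. The skin had been separated bluntly from the tail cartilage, whole skin was extracted, and fewer cells of a type cannot be told apart from less RNA per cell. Each pool was hybridized once, with RNA of whole e17.5 embryos as the common reference. Values are log2 ratios of tail skin over embryo with each array centered on its median. The sign was turned from the deposited ratio, which is embryo over skin (opposite to the dyes in the labels). Base 2 was assumed: with another base all log differences would scale by 1 factor, the folds would be raised to a power, and no call would change.

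The matrix proteins studied here fill the space between collagen fibers or form basement membranes. Elastic fibers are built from a core of elastin on a scaffold of fibrillin microfibrils, to which fibulins, EMILINs and microfibril-associated proteins bind. Laminins polymerize into the basement membrane sheet beneath epithelium and around vessels, and nidogens link that sheet to the type IV collagen network. Matricellular proteins such as tenascin-C, periostin and thrombospondin-1 modulate the contact of cells with matrix and are known for their appearance in healing wounds, while proteoglycans carry glycosaminoglycan chains that bind water and growth factors.

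Promoter sequence was listed for 27 of the 43 genes, with 32 start sites (RefSeq, build GRCm38.p6). It was listed for 3 of the 6 members that were higher in lymphedema than in normal skin (below), Tnc, Bgn and Fbln1. Eln, Lama4 and Nid2 had no entry. The 250 bases before the most upstream listed start of these 3 genes are shown, because the genes rose together. Capitals mark a TATA box (TATAAA), a GC box (GGGCGG), an AP-1 site (TGANTCA) or a SMAD box (CAGAC), the last being the letters read by the SMAD factors of TGF-beta signaling. All were searched on both strands, and overlapping matches were allowed.
Tnc, chr4:64047016-64047265, strand -: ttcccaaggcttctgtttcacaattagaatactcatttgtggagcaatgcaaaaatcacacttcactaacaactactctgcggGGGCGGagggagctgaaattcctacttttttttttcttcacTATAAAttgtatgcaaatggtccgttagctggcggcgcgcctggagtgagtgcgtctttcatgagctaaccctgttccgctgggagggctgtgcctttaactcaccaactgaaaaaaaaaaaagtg
Bgn, chrX:73483351-73483600, strand +: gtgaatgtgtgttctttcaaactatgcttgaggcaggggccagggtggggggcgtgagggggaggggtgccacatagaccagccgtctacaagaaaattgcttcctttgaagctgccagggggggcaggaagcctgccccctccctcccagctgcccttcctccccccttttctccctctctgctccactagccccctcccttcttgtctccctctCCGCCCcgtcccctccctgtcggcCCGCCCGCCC
Fbln1, chr15:85205699-85205948, strand +: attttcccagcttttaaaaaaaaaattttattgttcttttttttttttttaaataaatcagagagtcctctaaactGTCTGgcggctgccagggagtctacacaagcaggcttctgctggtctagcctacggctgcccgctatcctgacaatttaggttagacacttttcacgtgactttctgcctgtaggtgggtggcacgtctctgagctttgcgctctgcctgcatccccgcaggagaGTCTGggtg
The Tnc stretch held a TATA box that began 126 bases before the start and a GC box at 167 bases. The Bgn stretch held GC boxes at 34, 10 and 6 bases, of which the last 2 overlapped. The Fbln1 stretch held SMAD boxes at 174 and 9 bases before the start. No AP-1 site was found in the 3 stretches. In the full windows of 300 bases, which run 50 bases past the start, a TATA box was found in 4 of the 32 member promoters and in 13.6% of all 32851 listed promoters. A GC box was found in 22 of 32 against 35.7% of all, a SMAD box in 21 of 32 against 49.6%, and an AP-1 site in 2 of 32 against 7.81%. These matches are letters in a window and were not tied to any measurement of binding.

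Between 1.34% and 12.6% of the features of an array had no value, and arrays correlated with each other at 0.818 to 0.960 over genes. On every array 22 or 23 of 23 genes typical of embryos lay below the array median. Sham array 3 stood apart from the other sham arrays in the members and in several marker lists. These were leukocyte, fibroblast, muscle, tendon, cartilage and bone genes (values are given with the sham comparisons). The normal arrays and lymphedema array 1 shared a set of 186 features that had values on these 4 arrays and on none of the other 5. No other division of 4 arrays against 5 gave more than 45 such features, so that lymphedema array 1 is the one lymphedema array on the side of the normal arrays.

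The first comparison addressed how matrix gene expression differs between lymphedematous and normal skin. Matrix glycoprotein and proteoglycan genes tended to higher ratios in lymphedema. Of the 41 members, 6 rose at an adjusted p under 0.05, namely the elastic fiber genes Fbln1 and Eln, the basement membrane genes Lama4 and Nid2, the matricellular gene Tnc and the proteoglycan gene Bgn, and 0 fell. This was 14.6% of the members, beside 2.83% of all genes higher and 0.602% lower (limma, 245 and 52 genes). After quantile normalization, 112 genes were higher and 72 lower, and Bgn was the one member left. The median difference over members was 0.43 on the log2 scale, beside 0.10 over all genes, and 37 of 41 members had a positive difference, beside 62.0% of all genes.

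**Figure D1:**
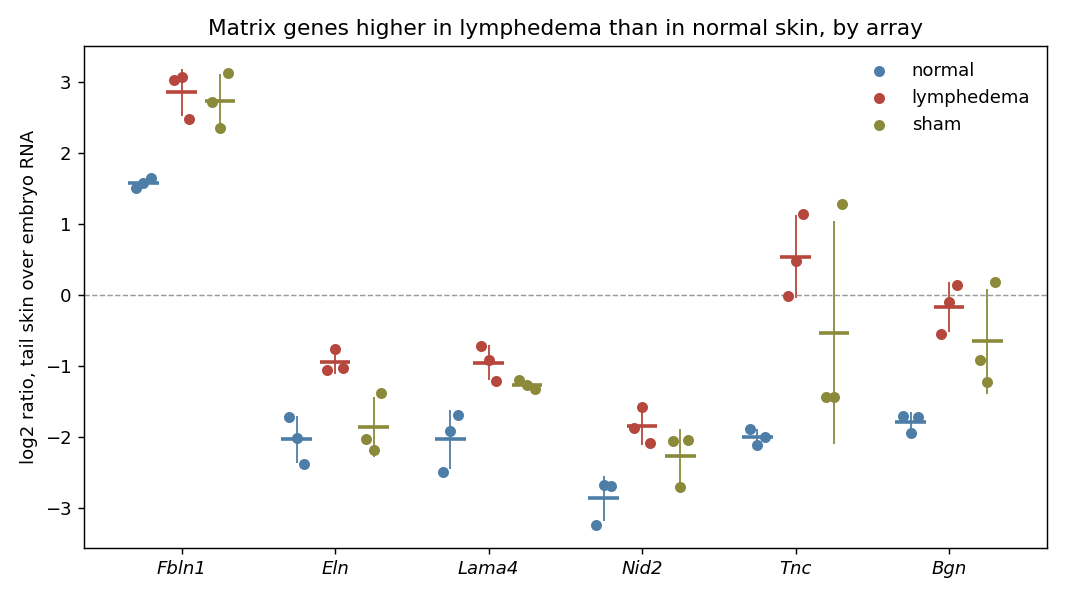
The plot shows the log2 ratio of tail skin over embryo RNA (y axis) of the 6 members that rose in lymphedema (x axis), on each of 9 arrays. Points are arrays, horizontal lines means and vertical lines SDs of 3 arrays; the lymphedema points lie above the normal points in every gene, and sham array 3, the highest sham point of Tnc at 1.29 and of Bgn at 0.18, lies with the lymphedema arrays there.

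The groups separated in more genes than passed the adjusted threshold. In 22 of 41 members (53.7%) each lymphedema array lay above each normal array, beside 23.6% of all genes, and in 0 members did they lie wholly below. At an unadjusted p under 0.05, 17 members were higher, beside 14.8% of all genes. With 3 arrays a group, an exact permutation test of a single gene cannot give a two-sided p below 0.1, so that the adjusted values rest on the limma fit across all genes. Leaving out 1 normal or lymphedema array removed most calls, of members and of all genes (297 in either direction with all arrays). Without normal array 1, normal array 2, lymphedema array 1 or lymphedema array 2 there were 0 member calls. All genes then gave 14, 13, 24 and 11 calls. Without normal array 3 Lama4 was the only member to pass (68 of all genes), and without lymphedema array 3 Fbln1 (73 of all genes). With the array set of missing values as a block, 0 genes passed, and the differences of the 6 members, which then rest on lymphedema array 1, were 0.98 to 1.98.

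**Figure D2:**
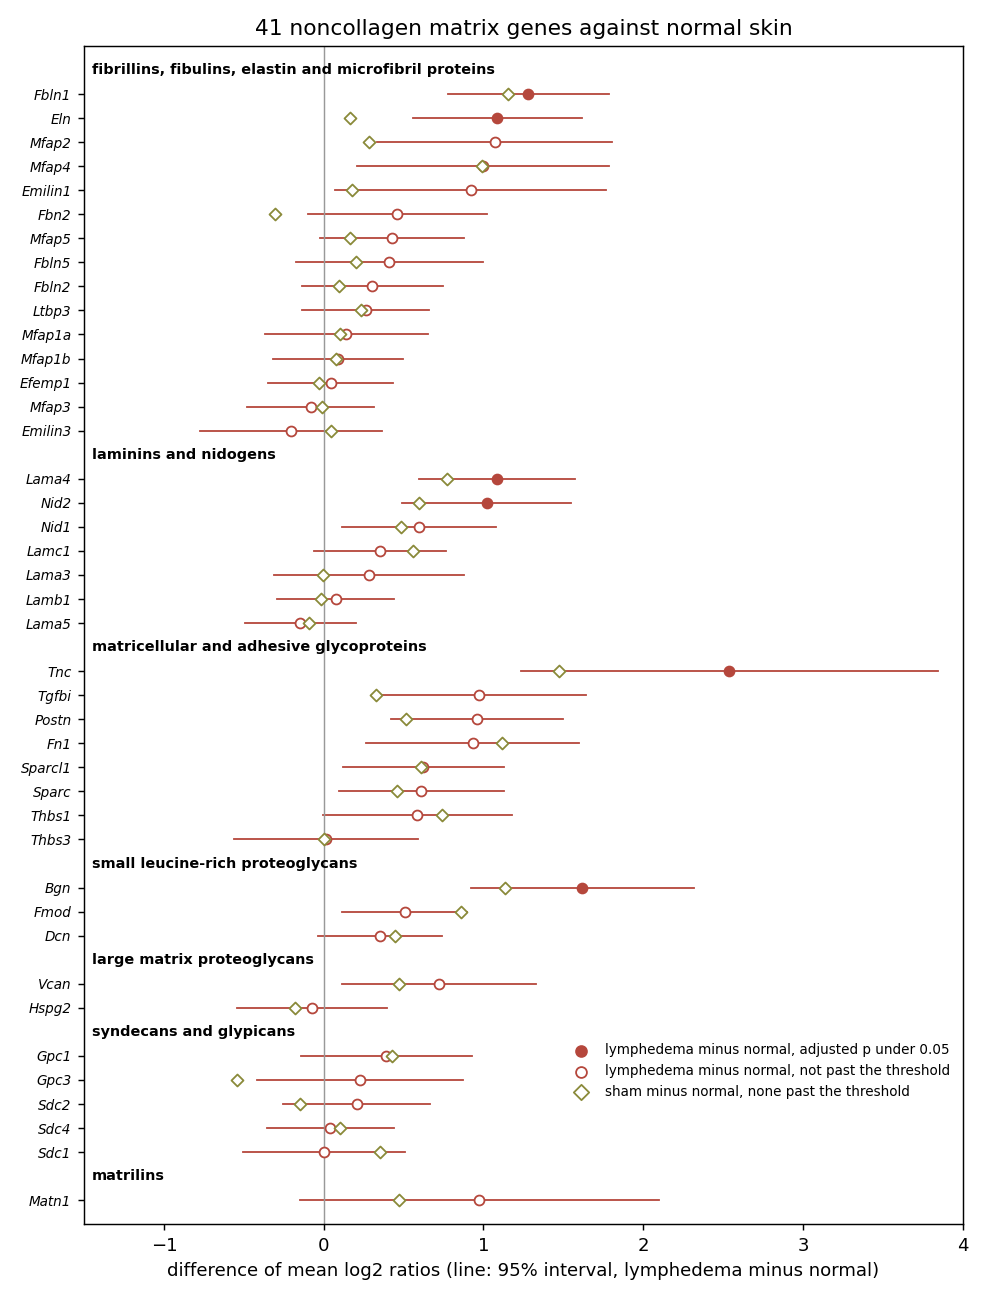
The plot shows, for each of 41 members (y axis, grouped by role), the difference of mean log2 ratios (x axis) of lymphedema minus normal as circles with 95% intervals from limma, and of sham minus normal as diamonds. Filled circles mark the 6 members at an adjusted p under 0.05; Tnc has the widest shift at 2.54, and 37 of 41 circles lie right of 0.

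Among the elastic fiber and microfibril genes 2 of 15 rose, 0 fell, and 13 had positive differences, with a median of 0.41. Fbln1 encodes fibulin-1, a calcium-binding glycoprotein of elastic fibers and basement membranes. Its normal arrays read 1.51, 1.58 and 1.65, its lymphedema arrays 3.03, 3.07 and 2.48, and its sham arrays 2.72, 2.35 and 3.13. All lymphedema and sham arrays lay above all normal arrays. The difference from normal skin was 1.28 ± 0.23 (SE, n = 3), or 2.43-fold, with an adjusted p of 0.024 (limma). These values average 2 clones that varied in opposite directions over the normal arrays, so that the average spreads less than either clone. Singly, the clones differed by 1.13 ± 0.35 and 1.43 ± 0.34 (SE), with adjusted p of 0.095 and 0.037 over all features (limma). Eln encodes tropoelastin, the soluble precursor of elastin. The ratio was -1.71, -2.01 and -2.38 in normal skin, -1.06, -0.76 and -1.02 in lymphedema, and -2.03, -2.19 and -1.39 in sham skin. Lymphedema was the highest group without overlap, and sham overlapped normal. Eln rose by 1.09 ± 0.24 (SE, n = 3), 2.12-fold, with an adjusted p of 0.037.

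Other genes of the elastic fiber had differences close to that of Eln and did not pass in the fit of all 9 arrays, to whose error the sham arrays contribute (SD over the sham arrays 0.83 for Mfap2, 0.92 for Mfap4, 0.84 for Emilin1 and 0.42 for Eln). With the arrays of the 2 groups only, 14 of 41 members were higher, beside 7.10% of all genes (limma). Mfap2 and Mfap4 were among them (adjusted p 0.0088 and 0.011), and Emilin1 was not. Mfap2, which encodes a small microfibril glycoprotein, had a difference of 1.07 with a 95% interval of 0.33 to 1.81. Mfap4, a microfibril-associated protein that binds elastin and collagen, had 1.00 (0.21 to 1.79), and Emilin1, a glycoprotein at the border of elastin and microfibrils, had 0.92 (0.07 to 1.77). In these 3 genes all lymphedema arrays lay above all normal arrays. Fbn2, a fibrillin prominent in development, Fbln5, which is needed for elastic fiber assembly, and Mfap5, a second small microfibril glycoprotein, had smaller differences of 0.46, 0.41 and 0.43. The remaining 7 members (Fbln2, Ltbp3, Mfap1a, Mfap1b, Efemp1, Mfap3 and Emilin3) lay between -0.21 and 0.31. Mfap1a and Mfap1b entered the group by symbol alone, and their values are not evidence about microfibrils, because a place of their products there was not checked. They are near-identical copies whose clones may share signal.

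Of 7 laminin and nidogen genes 2 rose and 0 fell, with a median difference of 0.35. Lama4 encodes the alpha-4 chain, found in laminins of vessel walls and mesenchymal tissues. Normal skin gave -2.50, -1.92 and -1.69, lymphedema -0.72, -0.92 and -1.22, and sham -1.20, -1.27 and -1.33. Both operated groups lay above normal on every array, and Lama4 rose in lymphedema by 1.08 ± 0.22 (SE, n = 3), 2.12-fold, with an adjusted p of 0.029. Nid2 encodes nidogen-2. It read -3.24, -2.67 and -2.69 in normal skin, -1.88, -1.57 and -2.09 in lymphedema, and -2.06, -2.70 and -2.04 in sham skin. Sham array 2 lay within the normal range and the other sham arrays with lymphedema. The rise in lymphedema was 1.02 ± 0.24 (SE, n = 3), 2.03-fold, with an adjusted p of 0.045.

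The remaining basement membrane genes did not pass. Nid1, the other nidogen, had a difference of 0.60 (95% interval 0.12 to 1.08) with the lymphedema arrays wholly above normal. Lamc1, the gamma-1 chain shared by most laminins, had 0.35 (-0.06 to 0.77). Lama3, the alpha chain of the laminin that anchors epidermis, had 0.28 (-0.31 to 0.88), Lamb1 0.08 (-0.29 to 0.44) and Lama5 -0.15 (-0.49 to 0.20). The intervals of Lamb1 and Lama5 do not reach the differences of Lama4 and Nid2. That of Lamb1 is for an average of 4 clones with differences from -0.59 to 0.40, and with 1 clone per gene Lamb1 had 0.37.

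In the matricellular and adhesive group 1 of 8 genes rose, and all 8 differences were positive, with a median of 0.78. Tnc encodes tenascin-C, a large glycoprotein that is sparse in resting adult skin and induced in wounds. Normal skin read -1.891, -2.109 and -2.005, which is tight beside the lymphedema arrays at -0.02, 0.48 and 1.15. Sham arrays 1 and 2 were at -1.44 and -1.43, near normal skin, whereas sham array 3 was at 1.29, above all lymphedema arrays. The difference of lymphedema from normal was 2.54 ± 0.59 (SE, n = 3), or 5.81-fold, with an adjusted p of 0.044, and no other member had as large a difference.

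Tgfbi, a secreted adhesion protein induced by TGF-beta, read 2.02, 1.81 and 1.81 in normal skin, 2.66, 2.75 and 3.14 in lymphedema, and 1.86, 3.04 and 1.72 in sham skin. Lymphedema lay above normal without overlap, and sham array 2 lay among the lymphedema arrays. The difference was 0.97 ± 0.30 (SE, n = 3) with an adjusted p of 0.10. Postn, which encodes periostin, was just outside the threshold, at -2.16, -1.96 and -1.64 in normal skin, -1.35, -0.78 and -0.75 in lymphedema, and -1.70, -1.54 and -0.97 in sham skin. Its difference was 0.96 ± 0.25 (SE, n = 3) with an adjusted p of 0.060, while Nid2 was just inside at 0.045. Fn1, fibronectin, had 0.93 (95% interval 0.26 to 1.60), Sparcl1 0.62 (0.12 to 1.13) and Sparc 0.61 (0.10 to 1.13), all with lymphedema wholly above normal. Thbs1, an activator of latent TGF-beta, had 0.59 (-0.01 to 1.18), and Thbs3 had 0.01 (-0.56 to 0.59).

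All 3 small leucine-rich proteoglycans, which bind collagen fibrils and control their width, had positive differences, and 1 rose. Bgn encodes biglycan. Its normal arrays read -1.71, -1.94 and -1.72, its lymphedema arrays -0.54, -0.10 and 0.14, and its sham arrays -0.91, -1.23 and 0.18. Normal skin was lowest without overlap, and sham array 3 was again above all lymphedema arrays. Bgn rose in lymphedema by 1.62 ± 0.32 (SE, n = 3), 3.07-fold, with an adjusted p of 0.027. Fmod encodes fibromodulin. It read 0.53, 0.43 and 0.53 in normal skin, 1.19, 1.14 and 0.68 in lymphedema, and 1.44, 1.27 and 1.36 in sham skin. The 3 groups did not overlap, with sham highest, and the difference of lymphedema from normal was 0.51 ± 0.18 (SE, n = 3) with an adjusted p of 0.14. Dcn, decorin, had 0.35 (95% interval -0.04 to 0.74).

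The large matrix proteoglycans differed in size of response. Vcan encodes versican, which binds hyaluronan. It read -3.20, -3.39 and -3.42 in normal skin, -2.84, -2.65 and -2.35 in lymphedema, and -3.32, -3.12 and -2.14 in sham skin. Lymphedema lay above normal without overlap, with a difference of 0.72 ± 0.28 (SE, n = 3) and an adjusted p of 0.17. Hspg2 encodes perlecan, the heparan sulfate proteoglycan of basement membranes. It read 0.45, -0.21 and -0.10 in normal skin, 0.01, 0.13 and -0.22 in lymphedema, and 0.12, -0.31 and -0.21 in sham skin. The 3 groups overlapped, and the difference was -0.07 ± 0.21 (SE, n = 3) with an adjusted p of 0.89.

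None of the 5 syndecan and glypican genes, which carry heparan sulfate at the cell surface, passed, and their median difference was 0.21. Gpc1 read 0.30, 0.54 and 0.79 in normal skin, 0.93, 0.94 and 0.94 in lymphedema, and 1.55, 0.79 and 0.57 in sham skin. Lymphedema lay above normal, by 0.39 ± 0.24 (SE, n = 3, adjusted p 0.40), and sham spanned both. Gpc3, a glypican of fetal tissues, read -2.89, -3.28 and -3.25 in normal skin, -2.91, -2.86 and -2.97 in lymphedema, and -4.17, -4.00 and -2.87 in sham skin. Sham arrays 1 and 2 lay below all normal arrays, and the difference of lymphedema from normal was 0.23 ± 0.29 (SE, n = 3, adjusted p 0.71). Sdc2, a syndecan of mesenchymal cells, had 0.21 (95% interval -0.25 to 0.67), and Sdc4, of focal adhesions, 0.04 (-0.36 to 0.44). Sdc1, the syndecan of epithelial cells, had 0.00 (-0.50 to 0.51).

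Matn1 encodes matrilin-1, a protein of cartilage. It read -2.42, -2.41 and -2.77 in normal skin, -1.72, -0.79 and -2.17 in lymphedema, and -3.24, -0.78 and -2.18 in sham skin. Lymphedema array 2 and sham array 2 were about equally high, and the difference of lymphedema from normal was 0.97 ± 0.51 (SE, n = 3) with an adjusted p of 0.31. Of 6 measured cartilage markers 0 passed, with list medians of -2.90 to -2.35 in normal, -2.47 to -2.34 in lymphedema and -3.03 to -2.20 in sham skin. The value of -2.20 was that of sham array 3. The median difference of lymphedema from normal over the 6 was 0.28, with a range from -0.37 for Col9a2 to 0.86 for Col9a1. The part of cartilage RNA in the Matn1 values was not tested.

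The second comparison addressed the incision without lymphatic ablation. In the division by missing values the normal arrays lay on the side of lymphedema array 1, and the sham arrays on the other. The incision and the array set therefore cannot be told apart in this comparison. No member and no gene passed (0%) in sham against normal skin, and 13 members were higher at an unadjusted p under 0.05, beside 5.54% of all genes. The alternative test SAM, with a false discovery rate of 5%, called 20 genes, among them Fbln1 and Fmod. The median difference over members was 0.28, beside 0.06 over all genes. With the array set as a block it was 0.13, beside 0.02 over all genes. In 10 of 41 members (24.4%) the sham arrays lay wholly above the normal arrays, beside 9.72% of all genes. Among the members named above these were Fbln1, Lama4, Lamc1, Tnc, Fn1, Sparcl1, Thbs1, Bgn, Fmod and Dcn. Fbln1 differed by 1.15 (95% interval 0.65 to 1.66), Bgn by 1.13 (0.43 to 1.83), Fn1 by 1.12 (0.45 to 1.79), Fmod by 0.86 (0.47 to 1.25) and Lama4 by 0.77 (0.28 to 1.26). The lowest adjusted p of a member was 0.20, that of Fbln1. Sham and lymphedema were each set against the same normal arrays, so that these values are not independent of the first comparison.

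**Figure D3:**
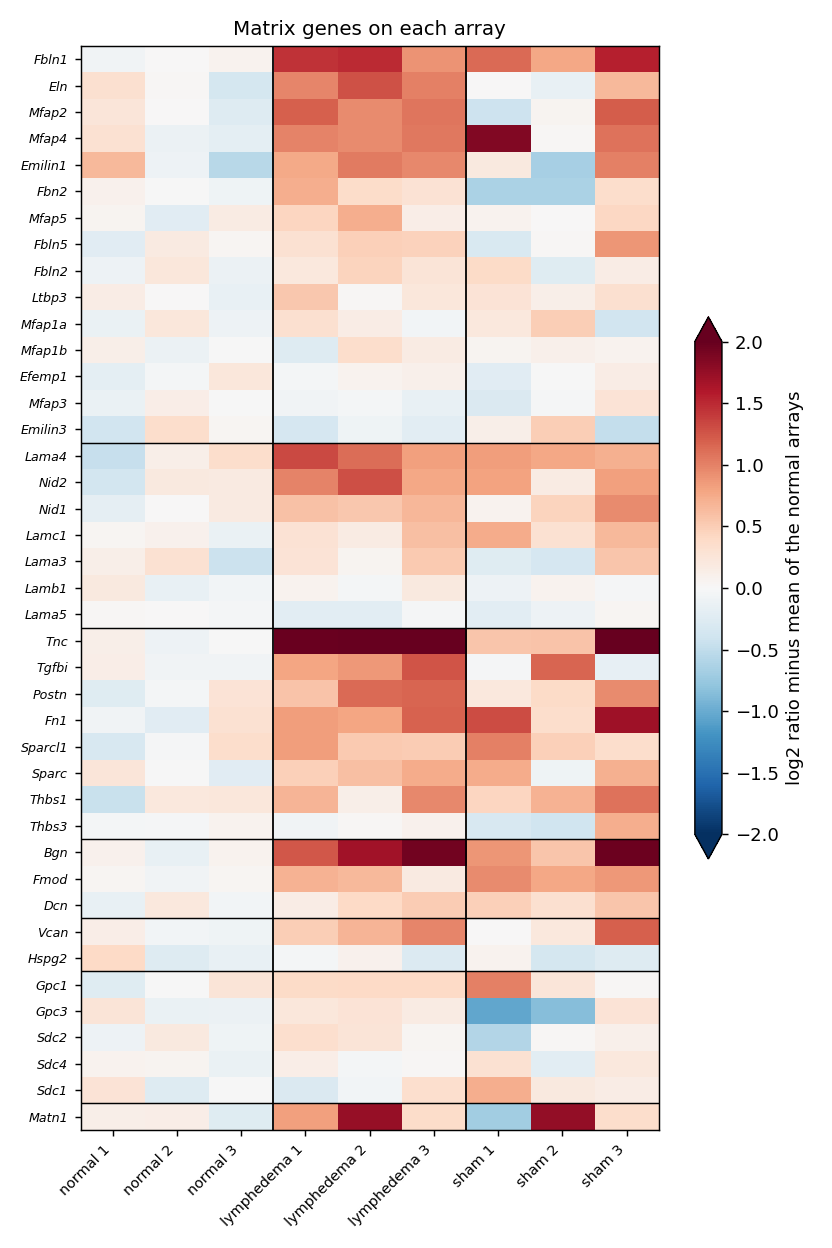
The heat map shows 41 members (rows, grouped by role with Fbln1 first and Matn1 last) on 9 arrays (columns) as the log2 ratio minus the mean of the 3 normal arrays, with red above and blue below and the color scale ending at 2 and -2. The 3 lymphedema columns are red in most rows, and the sham array 3 column, with a median of 0.55, resembles them more than sham arrays 1 and 2 at 0.19 and 0.11.

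The third comparison addressed ablation beyond the incision. Of all genes 0.0231% (2 genes) passed between lymphedema and sham, and 0 members. At an unadjusted p under 0.05, 4 members were higher in lymphedema, beside 4.59% of all genes, and SAM called 0 members. The median difference over members was 0.11, beside 0.06 over all genes. Eln, at 0.92 (95% interval 0.39 to 1.45), was the one member whose lymphedema arrays lay wholly above sham, beside 6.63% of all genes. Fmod, at -0.35 (-0.74 to 0.04), was the one member wholly below, beside 3.69%. For Fbln1 the difference was 0.13 (-0.38 to 0.63), and for Fn1 -0.19 (-0.85 to 0.48).

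Sham array 3 set much of the sham values. Its values lay nearer the lymphedema mean than the normal mean in 33 of 41 members, beside 46.3% of all genes, against 21 members on sham array 1 (52.7% of all genes) and 17 on sham array 2 (49.5%). The median deviation of the members from the normal mean was 0.48, 0.45 and 0.46 on the lymphedema arrays and 0.19, 0.11 and 0.55 on the sham arrays, whereas over all genes it was 0.04 to 0.14 on these 6 arrays. The members' median SD was 0.39 in sham, 0.20 in normal and 0.19 in lymphedema, beside 0.32, 0.17 and 0.20 over all genes. Sham array 3 stood out by these same values, so that a wider gap without it is partly built into that choice. Leaving out any other single array gave 0 members in lymphedema against sham. Without sham array 3, with 2 sham arrays left, lymphedema was higher than sham in 5 of 41 members, beside 0.891% of all genes (77 genes, limma). These were Tnc at 1.97 ± 0.28 (SE), Mfap2 at 1.25 ± 0.21, Gpc3 at 1.17 ± 0.18, Eln at 1.16 ± 0.22 and Fbn2 at 1.09 ± 0.18, with adjusted p of 0.014, 0.024, 0.018, 0.037 and 0.023. In Gpc3 and Fbn2 sham arrays 1 and 2 lay below normal skin (sham minus normal -0.95 and -0.63, adjusted p 0.072 and 0.15), beside a lymphedema minus normal difference of 0.23 and 0.46. Fbn2 and Gpc3 are best known from developing tissue and Tnc from healing wounds. The member median was then 0.28 for lymphedema against sham and 0.26 for sham against normal, and 0 members passed in the latter.

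Markers of other cell types moved on the same arrays. The median deviation of 6 neutrophil genes from the normal mean was 1.63, 2.02 and 1.92 on the lymphedema arrays and 0.48, 0.57 and 1.22 on the sham arrays, and 4 of the 6 rose in lymphedema, S100a9 by 4.61. Of 7 macrophage genes 3 rose, with medians of 0.69, 1.37 and 1.32 in lymphedema and 0.41, 0.07 and 1.26 in sham skin. Their differences of lymphedema from normal ranged from -0.06 for Csf1r to 2.48 for Ms4a6b. Of 8 fibroblast genes 1 rose, Vim by 0.93, with medians of 0.43, 0.48 and 0.63 in lymphedema and 0.18, 0.04 and 0.93 in sham skin. The fibroblast differences of lymphedema from normal ranged from -0.74 for Fap to that of Vim, and Fap had -1.42 in sham against normal. Skeletal muscle genes, 0 of 5 of which passed in lymphedema, had medians of 0.43, 0.77 and 1.84 on the sham arrays. The same list spread widely within the other groups, at 0.55, -0.09 and -0.48 in normal skin and 0.07, 0.07 and 0.73 in lymphedema. Of 5 blood endothelial genes 1 rose, Kdr by 0.99, and of 4 smooth muscle genes 0, with a list median of 0.73 and a range from -0.20 for Smtn to 0.79 for Myl9. Sham array 3 was thus the highest sham array for the members and for the neutrophil, macrophage, fibroblast and skeletal muscle lists. It was also the highest for the tendon, cartilage and bone lists, at 0.99, 0.40 and 0.21. Sham arrays 1 and 2 had -0.34 and -0.23 (tendon), -0.35 and -0.47 (cartilage), and -0.14 and -0.55 (bone). The blood endothelial (0.72) and smooth muscle (0.54) lists were highest there too, but the keratinocyte, adipocyte and Schwann cell lists were not. The part of these cells in the values of the matrix genes was not tested.

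**Figure D4:**
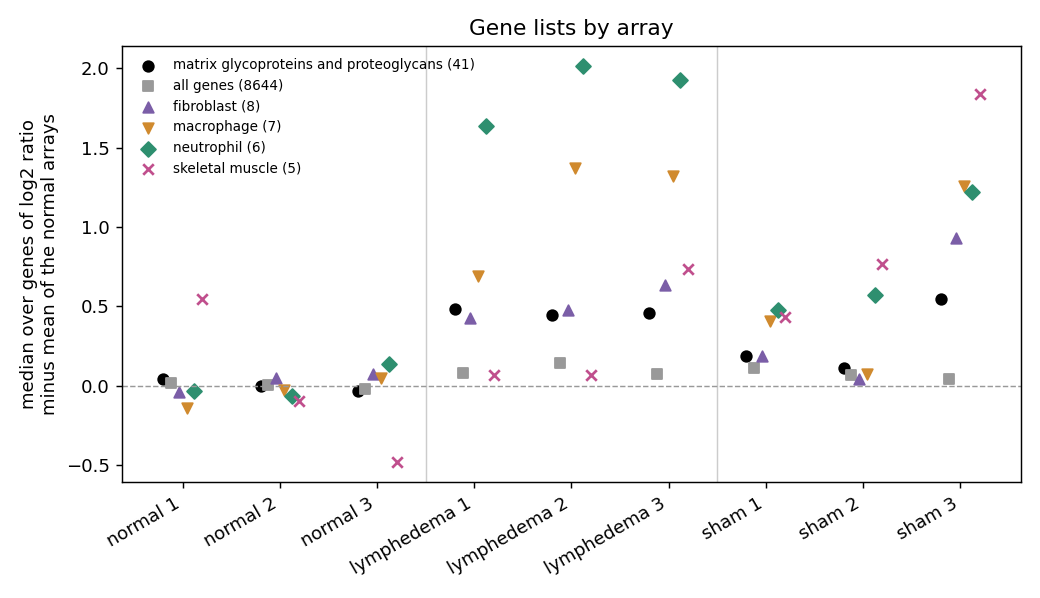
The plot shows the median over the genes of a list of the log2 ratio minus the mean of the normal arrays (y axis) on each of 9 arrays (x axis), with the number of genes in parentheses. The matrix genes lie at 0.45 to 0.48 in lymphedema and at 0.55 on sham array 3, where the neutrophil, macrophage and fibroblast lists lie at 1.22, 1.26 and 0.93.

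Other marker lists had 0 genes past the threshold in lymphedema: 5 adipocyte genes (median difference 0.26), 4 basal keratinocyte genes (0.35), 4 differentiated keratinocyte genes (0.00), 3 bone genes (-0.17), 2 tendon genes (0.30) and 2 Schwann cell genes (0.04). Some of these medians hide a wide range. The bone genes ran from -1.23 for Bglap (adjusted p 0.055, limma) to 0.015 for Dmp1. The adipocyte genes ran from -0.26 for Cidec to 0.94 for Fabp4 (adjusted p 0.086, limma). Markers of lymphatic endothelium were not analysed here. Basal keratinocyte genes, with medians of 2.56 to 3.34 over all arrays, were above the embryo on every array.

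Levels relative to the embryo gave another view of the members. The embryo RNA was 1 reference without replicates, so that these levels were described and not tested, and a ratio says nothing of one gene's abundance against another's. In normal skin 28 of 41 members (beside 55.1% of all genes) lay below the embryo, with a median of -0.83 against -0.10 over all genes. The lowest were Fbn2 at -4.35 ± 0.08 (SD, n = 3), Vcan at -3.33 ± 0.12, Fn1 at -3.32 ± 0.27 and Gpc3 at -3.14 ± 0.22, all known from growing tissue. Fn1 and Vcan differed by less than the spread of their arrays. The highest were Sdc1 at 2.27 ± 0.26, Tgfbi at 1.88 ± 0.12 and Fbln1 at 1.58 ± 0.07, of which Fbln1 is the mean of a clone at 4.38 and a clone at -1.22, below the embryo. The small SD of Fbln1 is that of this mean, and each clone alone spread more. Members below the embryo in normal skin had a median lymphedema difference of 0.60 and those above it 0.14, beside 0.20 and -0.06 over all genes. Both quantities contain the normal arrays, so that part of that relation is arithmetic.

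**Figure D5:**
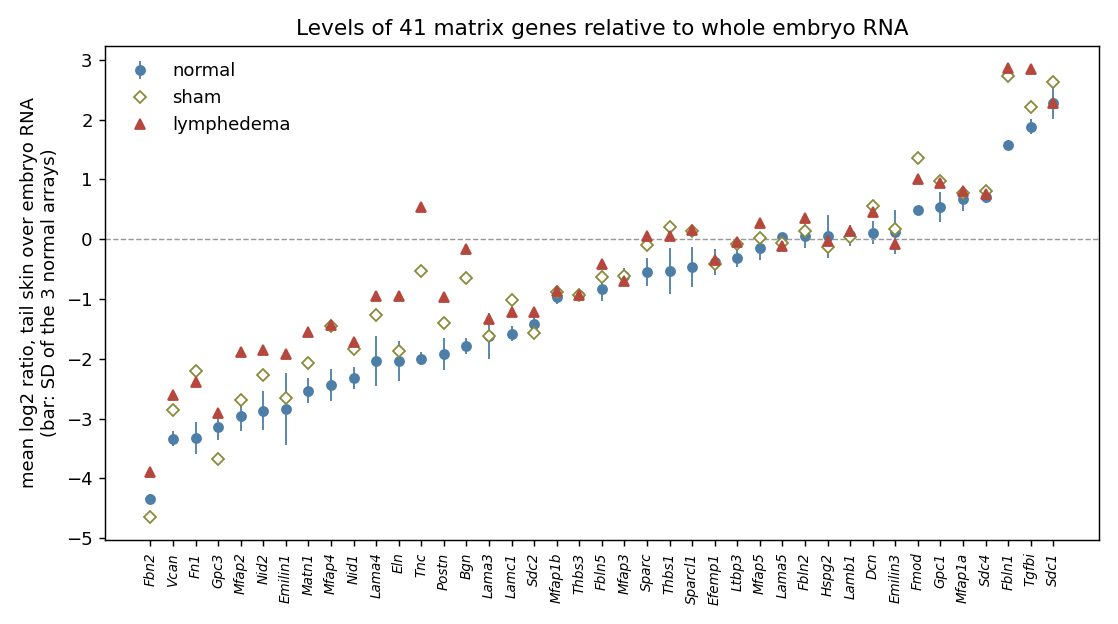
The plot shows the mean log2 ratio of tail skin over whole embryo RNA (y axis) for 41 members (x axis), ordered by the mean in normal skin, with SDs of 3 normal arrays as bars. Normal skin runs from -4.35 for Fbn2 to 2.27 for Sdc1, and the lymphedema triangles stand clear of the normal circles mainly in genes at the left and for Tgfbi and Fbln1 at the right.

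Clones of a gene were averaged, and 18 members had at least 2 clones. Seen singly, 7 of 75 clones were higher in lymphedema, beside 2.3% of 30702 features: the clones of Tnc, Eln, Bgn and Lama4 and 1 of 2 clones each of Fbln1, Mfap4 and Postn. In 6 genes (Dcn, Hspg2, Lamb1, Mfap3, Sdc1 and Sdc4) clones had differences of opposite sign. In 3 genes clones lay over 2 apart in normal skin. The Fbln1 clones, annotated to the same accession, read -1.22 and 4.38 on average, so that its mean level of 1.58 describes neither clone, although their differences were alike at 1.43 and 1.13. Lamb1 clones ranged from -2.04 to 0.98, and Matn1 clones read -3.54 and -1.53 with differences of 1.54 and 0.41. The 4 Sparc clones (0.33 to 0.78), 3 Fn1 clones (0.73 to 1.15) and 4 Nid1 clones (0.42 to 0.73) had differences of 1 sign. Thbs1 clones had differences of 1.07 and 0.10.

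Genes that build, modify or bind this matrix gave a background to the members. Of 7 measured crosslinking and processing enzymes 2 rose and 0 fell, with a median difference of 0.51. Lox, the lysyl oxidase that crosslinks elastin and collagen, read -1.84, -2.05 and -2.53 in normal skin, -0.49, -0.58 and -0.33 in lymphedema, and -1.997, -1.51 and -0.23 in sham skin. It rose by 1.67 (adjusted p 0.037), and sham array 3 lay above all lymphedema arrays, as in Tnc and Bgn. Tgm2, a transglutaminase, rose by 0.83 (adjusted p 0.045). Of 17 matrix receptors 0 passed, with a median of 0.05. They ranged from -0.33 for Itga3, an integrin chain of laminin receptors, to 1.06 for Itga11, of a collagen receptor.

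Of 13 genes of TGF-beta ligands, receptors and targets 2 rose, the co-receptor Eng by 0.92 and the co-repressor Tgif1 by 0.96 (adjusted p 0.040 and 0.027), and the list median was 0.11. The ligands Tgfb1 and Tgfb2 had -0.20 and -0.30. Of 17 genes of glycosaminoglycan synthesis and remodeling 1 fell and 0 rose, with a median of 0.17. That gene was Chsy1, a chondroitin synthase, which read 1.26, 0.31 and 0.64 in normal skin, -0.45, -0.33 and -0.65 in lymphedema, and -0.13, -0.05 and 0.14 in sham skin. It fell by 1.21 on the log2 scale (adjusted p 0.027), and the 3 groups did not overlap.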

How the data were processed

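Gene expression was measured on 9 two-color cDNA arrays, 3 for each group of the sample labels. Per the study's methods, the authors extracted features with GenePix, subtracted background and normalized the dyes. They deposited a single log ratio between the channels for each feature of an array, taken here as log2. The base and the centering are not given in the sources used here. The labels put tail skin in Cy5 and the methods in Cy3. The ratio was read as embryo over skin from 23 embryo and 15 adult skin genes on each array, and its sign was turned. The authors' intensity filter and imputation are not in the table, and intensities were not used.

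The median of each array was set to 0, and the 15723 features named by 1 gene (platform annotation, which can be old) with values on all arrays were averaged to 8644 genes. Groups were compared with limma 3.58.1 (R 4.3.3; lmFit and eBayes, group only, all 9 arrays) with Benjamini-Hochberg adjustment at 0.05 over all genes, tested on simulated data. The number of arrays limits the precision. Alternatives were other scalings (none, common median absolute deviation, quantile), genes with 2 of 3 values (left empty or imputed from 10 neighbors), 1 clone per gene, 2 groups only, blocks for replicate number and array set, each array left out, and SAM at 5%. Full statistics were given for members past the threshold, for the 2 of each role with the largest difference of lymphedema from normal, and for Postn as the next outside the threshold, chosen after its value was seen. Members and gene lists were chosen with earlier results of these data known. Figures were drawn with matplotlib 3.10.9.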

Additional observations from a re-analysis of the deposited data

How the results depend on the processing

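The count of 6 members higher in lymphedema than in normal skin became 1 with quantile normalization, 14 with the 2 groups alone, 4 with the replicate block, 0 with the array set as a block, 21 with SAM, and 0 to 9 with 1 array left out. For all genes (297) the counts were 184, 842, 145, 0, 1833 and 11 to 623. Deviations of same-numbered arrays from their group means correlated at -0.24 to 0.28. Differently numbered arrays were not compared, so that these values cannot show whether the numbers pair the pools. The replicate block kept Fbln1, Bgn and Tnc and added Postn. Of 19 alternatives, Fbln1 and Bgn passed in 12, Lama4 and Eln in 10, Tnc in 9 and Nid2 in 7. The sign of these 6 did not turn in any, but many of the alternatives could not have turned it. Their lymphedema arrays all lay above their normal arrays, so that leaving out 1 array cannot change the sign. The 2 groups alone, the replicate block and SAM leave the difference itself unchanged.

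For sham against normal skin, 2 genes passed with 1 clone per gene, 20 with SAM (2 members), and 0 to 12 with 1 array left out. For lymphedema against sham, the 2 genes became 10 with median absolute deviation scaling, 0 with the 2 groups alone, 1 without centering, with quantile normalization, with 2 of 3 values (imputed or not), with the replicate block, with the array set block and with SAM, and 0 to 96 with 1 array left out, and the members 0 to 5.

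Quantile normalization moved the median difference of all genes from 0.10 to -0.02, which bears on members near 0. Lymphedema minus normal turned under quantile normalization for Lama3 (-0.042), Lamb1 (-0.0543), Mfap1b (-0.13), Efemp1 (-0.0573), Thbs3 (-0.22), Gpc3 (-0.20), Sdc2 (-0.087), Sdc4 (-0.0409) and Sdc1 (-0.12). It turned under median absolute deviation scaling for Fbn2 (-0.0852), Mfap1b (-0.0181), Efemp1 (-0.00015), Thbs3 (-0.11) and Gpc3 (-0.17). Without centering it turned for Efemp1 (-0.0167), Thbs3 (-0.0477), Sdc4 (-0.0205) and Sdc1 (-0.0597), and with the array set block for Mfap1b (-0.25), Efemp1 (-0.0427), Thbs3 (-0.0693) and Sdc1 (-0.28). With 1 array left out the ranges were -0.041 to 0.26 for Mfap1b, -0.0527 to 0.16 for Efemp1, -0.0233 to 0.0552 for Thbs3, -0.0237 to 0.0821 for Sdc4, -0.17 to 0.14 for Sdc1 and -0.20 to 0.13 for Hspg2. None of these members passed in any of these settings. The cause was not tested. Imputation and 2-of-3 fits kept incomplete genes, and intensities that would limit dim spots were not used here.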

Other observations

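Thbs2, the thrombospondin that limits vessel growth, was outside the test because normal array 1 and sham array 1 had no value. It read 0.09 and -0.09 in normal skin, -0.52, -0.51 and -0.62 in lymphedema, and 0.45 and 0.62 in sham skin. Lymphedema was lowest and sham highest without overlap, against the direction of most members. In the fit of genes with 2 of 3 values per group (limma), the difference of lymphedema from sham was -1.09 (adjusted p 0.25) and from normal -0.55 (adjusted p 0.16). Lama1 had 2 incomplete clones, of which 1 entered the same fit, with -0.05 against normal.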
